A study of Mus musculus with 24 samples.

Results

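Liver of 6 mice fed 1.0% quercetin was compared with liver of 6 mice fed 0.5% quercetin, which are 12 of the 24 arrays of the series. The arrays were chosen by the diet named in their labels, and no measured value was used to choose them. All mice were male BALB/c, bought at 6 weeks of age and kept for a week on a non-purified diet. They then ate the purified diet AIN93G for 14 days, alone in the control group and with 0.1%, 0.5% or 1.0% quercetin in the others, with 6 mice per diet and 3 mice per cage. Each array held the RNA of its own mouse, so an array stands for an animal. Which mice shared a cage was not given in the sources used here, so cage and diet cannot be told apart. The comparison asks which liver transcripts differ between the higher doses, and in which of these doses a gene stands away from control.

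Quercetin is a plant flavonol that the gut wall and the liver turn into glucuronides, sulfates and methylated forms. The liver also makes taurine for bile acid conjugation, makes heme for its cytochromes P450, and folds large amounts of secreted protein. Heat shock factor binds repeated GAA units in promoters of cytosolic chaperone genes, and the sensors of the unfolded protein response act through an endoplasmic reticulum stress element at genes of that compartment's chaperones.

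The promoters below are of the genes and lists on which the results turn: Csad, which was higher at 1.0% than at 0.5%, Arid5b, which was lower, and chaperone genes of both lists. They come from RefSeq on build GRCm38.p6 and are written 5′ to 3′ on the strand of the gene. The Csad windows are the 250 bases before its 2 listed starts, at chr15:102205053-102205302 and chr15:102189044-102189293 on the minus strand, and the Arid5b window lies before its start at chr10:68278727-68278976 on the minus strand. The shorter stretches hold 20 bases on each side of a motif, which is in capitals. They lie at chr17:34972233-34972280 for Hspa1a, chr17:34959315-34959362 for Hspa1b, chr11:50325780-50325838 for Canx and chr8:84847055-84847113 for Calr, on the minus strand, and at chr19:6046512-6046570 on the plus strand for Syvn1.
Csad, start 1: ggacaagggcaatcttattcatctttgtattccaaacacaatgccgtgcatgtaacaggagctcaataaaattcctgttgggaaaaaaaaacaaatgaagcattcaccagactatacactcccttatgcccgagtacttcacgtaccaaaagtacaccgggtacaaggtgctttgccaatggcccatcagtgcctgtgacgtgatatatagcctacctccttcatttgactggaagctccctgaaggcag
Csad, start 2: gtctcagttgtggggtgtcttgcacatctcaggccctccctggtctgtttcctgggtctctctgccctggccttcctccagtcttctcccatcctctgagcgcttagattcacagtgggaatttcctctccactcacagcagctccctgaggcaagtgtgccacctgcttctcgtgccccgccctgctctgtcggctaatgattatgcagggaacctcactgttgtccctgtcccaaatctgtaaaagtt
Arid5b: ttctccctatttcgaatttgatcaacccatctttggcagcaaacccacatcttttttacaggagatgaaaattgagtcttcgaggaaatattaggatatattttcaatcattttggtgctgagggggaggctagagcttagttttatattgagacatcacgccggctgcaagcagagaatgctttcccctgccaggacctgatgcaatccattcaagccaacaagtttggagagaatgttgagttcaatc
Hspa1a: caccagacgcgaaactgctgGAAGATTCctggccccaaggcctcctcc
Hspa1b: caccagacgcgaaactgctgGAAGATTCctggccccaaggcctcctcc
Canx: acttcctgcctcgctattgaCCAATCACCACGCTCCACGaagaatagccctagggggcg
Calr: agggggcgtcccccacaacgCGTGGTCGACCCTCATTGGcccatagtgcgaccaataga
Syvn1: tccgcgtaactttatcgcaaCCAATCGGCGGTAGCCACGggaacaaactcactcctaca

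The capitals mark matches to one of 2 motifs, searched on both strands of the 250 bases before each start: GAANNTTC, a pair of facing heat shock units, and the endoplasmic reticulum stress element, CCAAT and CCACG with any 9 bases between them. The motifs were searched separately. GAANNTTC was in 6 of the 15 heat shock genes with a listed promoter (40%), against 6.62% of the 14452 measured genes with one. The 6 were Hspa1a, Hspa1b, Hspb1, Dnaja1, Hspd1 and Hspe1. Among them were genes from both ends of the list by difference between the doses. The stress element was in 8 of 21 unfolded protein response genes (38.1%), Hspa5, Hsp90b1, Calr, Canx, Pdia6, Dnajc3, Creld2 and Syvn1, against 0.131% of the same 14452 genes. In Calr the match reads on the opposite strand. The stretches of Hspa1a and Hspa1b are letter for letter the same, and these near-identical copies may share probes, so their separate values are uncertain. A match describes the letters only.

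Values are quantile-normalized log2(intensity + 1), and each of 18193 genes is represented by 1 probe set. Each difference is given by a limma fit of the 24 arrays, where SE is its standard error. Unless called unadjusted, p-values carry the Benjamini-Hochberg adjustment across all genes. Before normalization the medians of the arrays lay between 5.79 and 6.99 at 0.5% and between 5.53 and 7.23 at 1.0%. Precision is limited by having 6 arrays per diet. Among the hepatocyte markers, Alb had a mean of 13.12 at 0.5% and 13.16 at 1.0%. Cps1 (11.9), Tat (10.37) and Cyp2e1 (13.03) were also bright at 0.5%, but Ass1 was dim, at 4.06 at 0.5% and 3.61 at 1.0%. The summed intensity of 10 such markers lay between 57400 and 62000 in both groups, and the brightest members weigh most in that sum. Replicates 4 and 6 at 0.5% and replicates 4 and 5 at 1.0% stood apart on the first principal component of the 24 arrays, which held 9.1% of the variance and was led by the metallothionein genes Mt2 and Mt1. Replicate 1 at 0.5% (10.73) and replicate 6 at 1.0% (9.808) had a high log2 signal of the 18S ribosomal RNA control probe sets, against at most 6.739 and 7.774 in the other arrays of their groups. The summed intensity of 11 neutrophil markers ran from 95.5 to 1510 at 0.5%, from 142 to 403 at 1.0% and from 83.2 to 114 in control, with Camp, Cxcr2 and Mmp8 near the floor. The sum includes Lcn2, which was among the genes leading the first component. At 0.5% the highest arrays of Ngp, Ltf and Elane (4.07, 2.865 and 3.624) were below those in control (4.39, 3.227 and 3.675). S100a8 went the other way (7.204 against 4.718). Which markers carry the sum was not examined. In whole liver, fewer cells of a type and less RNA per cell cannot be told apart.

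Between 1.0% and 0.5%, 3 genes rose and 1 gene fell. Csad, Saal1 and Ppfia4 were higher at 1.0% and Arid5b was lower. These 4 genes are 0.022% of the 18193 tested (0.0165% higher and 0.0055% lower). At an unadjusted p under 0.05 there were 1127 genes (6.19%), of which 591 were higher (3.25%) and 536 lower (2.95%). Over all genes the median difference was 0.00817 on the log2 scale, with 51.4% of genes above 0 and 48.6% below.

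Csad encodes cysteine sulfinic acid decarboxylase, an enzyme of taurine synthesis. Its log2 level was 6.91, 7.22 and 7.89 (lowest, median and highest array) at 1.0%, 5.99, 6.25 and 6.78 at 0.5%, and 6.15, 6.23 and 6.47 in control. Every array at 1.0% was above every array at 0.5% and in control, while the 0.5% arrays lay on both sides of the control mean. Csad rose 1.99-fold from 0.5% to 1.0% (log2 1.00, SE 0.15, 95% interval 0.68 to 1.31, adjusted p = 0.0268). Against control the difference was 0.03 at 0.5% (adjusted p = 0.982) and 1.02 at 1.0% (adjusted p = 0.00607), and these comparisons share the control arrays. Without the 4 arrays apart on the first component the difference in Csad was 0.69 (adjusted p = 0.598), and without the 2 arrays high in 18S signal it was 1.17 (adjusted p = 0.00225). The call was lost when replicate 3, 4, 5 or 6 at 0.5% or replicate 1 or 5 at 1.0% was left out, with an adjusted p of at most 0.128 over the 24 such fits.

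Saal1 is named for its likeness to serum amyloid A. Its level was 5.62, 5.74 and 5.93 at 1.0%, 5.15, 5.26 and 5.35 at 0.5%, and 5.32, 5.46 and 5.58 in control. The 1.0% arrays were all above the control arrays, and the 0.5% arrays overlapped the lower control arrays. Saal1 rose 1.41-fold (log2 0.49, SE 0.08, 95% interval 0.32 to 0.66, adjusted p = 0.0326), with differences from control of -0.21 at 0.5% (adjusted p = 0.563) and 0.29 at 1.0% (adjusted p = 0.36). Its 2 other probe sets were dimmer and differed by -0.63 and 0.05, neither passing, and with the mean of its probe sets the difference was -0.03 (adjusted p = 0.995). Saal1 passed in 10 of 24 fits that each left out 1 array. It was lost without control replicate 1, 0.1% replicate 2 or 4, any of the 6 arrays at 0.5%, or replicate 1, 3, 4, 5 or 6 at 1.0% (highest adjusted p = 0.128). Its difference without the 4 arrays apart on the first component was 0.40 (adjusted p = 0.598).

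Ppfia4 encodes liprin-alpha-4, a scaffold protein described mainly at synapses. Its level was 2.23, 3.56 and 3.84 at 1.0%, 1.28, 1.64 and 1.93 at 0.5%, and 1.90, 3.23 and 3.59 in control. The 0.5% arrays were all below the 1.0% arrays, and their mean of 1.62 lay under the floor of 2.23, the 30th percentile of gene means, so no fold is given. The log2 difference was 1.74 (SE 0.30, adjusted p = 0.0409), and 2 other probe sets of the gene differed by -0.29 and -0.69 without passing. Neither dose passed against control (-1.24 at 0.5%, 0.50 at 1.0%, adjusted p = 0.291 and 0.673). With a pseudocount of 16 the Ppfia4 difference was 0.50 (adjusted p = 0.101), and with the mean of its probe sets 0.25 (adjusted p = 0.937). It passed in 8 of 24 fits that left out 1 array. It was lost without control replicate 1, 0.1% replicate 2, 3, 4 or 6, any array at 0.5%, or replicate 1, 3, 4, 5 or 6 at 1.0% (highest adjusted p = 0.174).

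Arid5b encodes a DNA-binding protein that works with a histone demethylase. Its level was 7.04, 7.76 and 8.07 at 0.5%, 6.12, 6.28 and 7.12 at 1.0%, and 6.10, 6.27 and 6.68 in control. All 0.5% arrays were above all control arrays, and the lowest of them lay within the range of the 1.0% arrays. Arid5b fell 2.27-fold from 0.5% to 1.0% (log2 -1.19, SE 0.20, 95% interval -1.59 to -0.78, adjusted p = 0.0326). It rose at 0.5% against control (1.31, adjusted p = 0.0199) and differed by 0.13 at 1.0% (adjusted p = 0.901). Of its 4 other probe sets, 3 were lower at 1.0% than at 0.5% (-0.45, -0.95 and -1.32) and the dimmest differed by 0.17, none passing. With the mean of its probe sets the difference was -0.75 (adjusted p = 0.609). Arid5b passed in 12 of 24 fits that left out 1 array, and was lost without control replicate 1, 0.1% replicate 2 or 4, 0.5% replicate 1, 3, 4, 5 or 6, or 1.0% replicate 2, 3, 5 or 6 (highest adjusted p = 0.134). Its difference without the 4 arrays apart on the first component was -1.16 (adjusted p = 0.598).

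The number of genes passing between the doses depended on the arrays and the scaling. With no normalization between the arrays, limma gave 0 genes (973 at an unadjusted p under 0.05), and with arrays centred on their medians 1, Arid5b. Without the 4 arrays apart on the first component it passed 0 (1155 unadjusted), as it did in the fit of the 12 arrays alone (943 unadjusted). It also passed 0 without replicate 3, 4, 5 or 6 at 0.5% (1136, 1070, 1135 and 1061 unadjusted) or replicate 5 at 1.0% (1293 unadjusted). It passed 1 without control replicate 1, 0.1% replicate 2 or 4, 0.5% replicate 1, or 1.0% replicate 1, 3 or 6, 2 without 1.0% replicate 4, and 8 without control replicate 2.

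**Figure D1:**
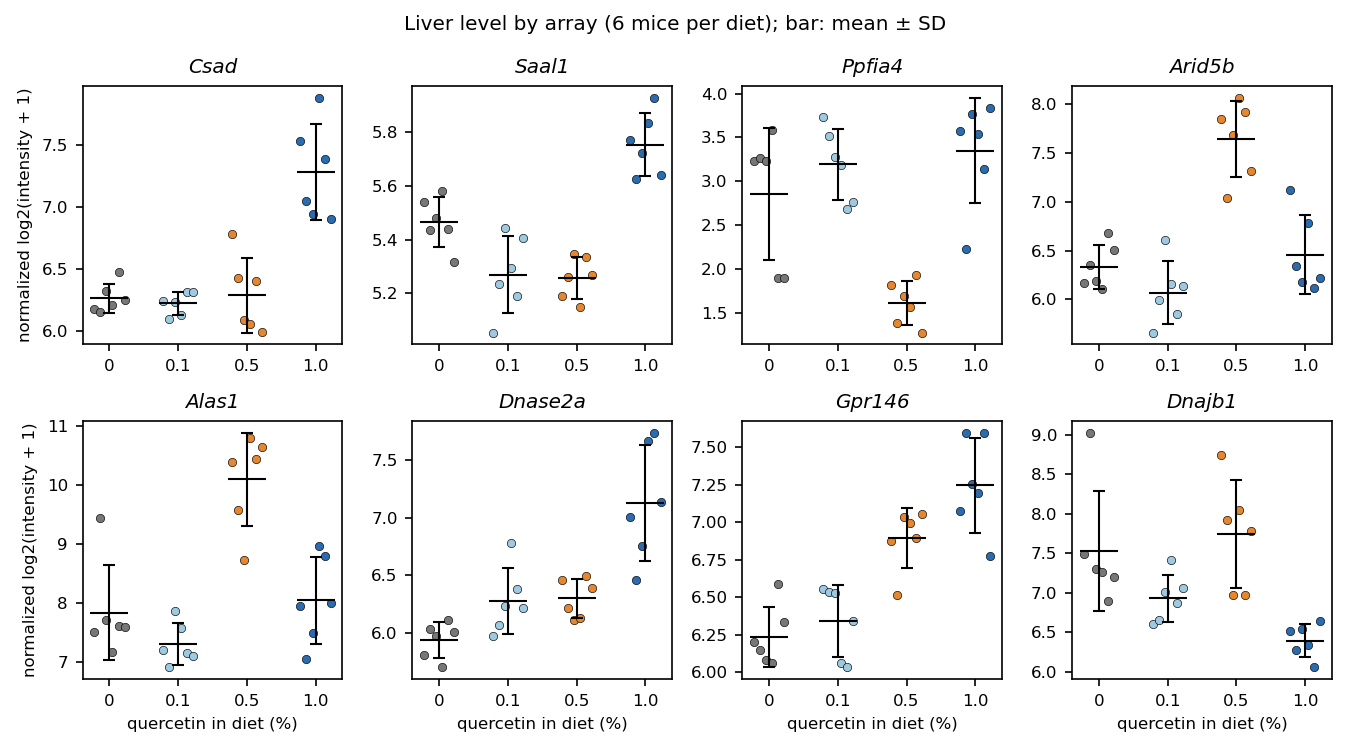
Normalized log2(intensity + 1) of 8 genes in each mouse by the percentage of quercetin in the diet, with the mean and SD of 6 mice per diet as bars. Csad and Dnase2a are highest at 1.0%, Arid5b and Alas1 are highest at 0.5%, and Dnajb1 is lowest at 1.0%, while control replicate 2 stands above the other control arrays for Alas1 and Dnajb1.

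Against control, 3 genes passed at 0.5% (0.0165% of the 18193 tested), with Alas1 and Arid5b higher (0.011%) and Carlr lower (0.0055%). At 1.0% there were 4 (0.022%), with Csad, Dnase2a and Gpr146 higher (0.0165%) and Carlr lower (0.0055%). At an unadjusted p under 0.05 there were 1392 genes at 0.5% (7.65%), 681 higher (3.74%) and 711 lower (3.91%), and 1623 at 1.0% (8.92%), 810 higher (4.45%) and 813 lower (4.47%). Of the 6 genes in these calls, Csad and Arid5b passed the direct comparison of the doses, and the others are described next by their difference between the doses. Leaving out replicate 1 or 4 of control, or replicate 4 or 5 of the 0.5% group, brought the count at 0.5% to 0 in limma (1280, 1284, 1091 and 1539 genes unadjusted). The count was 1 on leaving out control replicate 5, control replicate 6, 0.1% replicate 1 or 0.1% replicate 4, 5 without 1.0% replicate 2 or 3, and 6 without 0.1% replicate 6. The count at 1.0% was 7 without control replicate 5. When the 4 arrays apart on the first component were left out, limma passed 1 gene at 0.5% and 0 at 1.0% (1475 unadjusted). That 1 gene was lower at 0.5% and was not Alas1, Arid5b or Carlr.

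Alas1 encodes the first enzyme of heme synthesis, which sets the rate of the pathway in liver. Its level was 8.73, 10.42 and 10.79 at 0.5%, 7.06, 7.99 and 8.97 at 1.0%, and 7.18, 7.61 and 9.44 in control, where 9.44 was replicate 2. In 5 of the 6 arrays at 0.5% Alas1 was above every array at 1.0%, and in replicate 3 it lay within their range. Alas1 rose at 0.5% against control (log2 2.25, adjusted p = 0.0464) and differed by 0.21 at 1.0% (adjusted p = 0.921). The difference between the doses was -2.04 (SE 0.39, 95% interval -2.85 to -1.24), which did not pass (adjusted p = 0.0836), and a second, dimmer probe set gave -1.16. With a pseudocount of 16 the Alas1 difference passed (-1.98, adjusted p = 0.0263), as it did without the genes below the median level (adjusted p = 0.0317). In replicates 1 to 3 it was -2.06, in replicates 4 to 6 -2.03, and without the 4 arrays apart on the first component -2.15. None of the 12 measured genes of heme synthesis and breakdown passed between the doses. Next to Alas1 in that list stood Cpox (-0.29), which makes protoporphyrinogen, Clpx (-0.25), a mitochondrial protease subunit that acts on Alas1 protein, and Alad (0.15), the second enzyme of the pathway.

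Dnase2a, a lysosomal DNase gene, was at 6.46, 7.07 and 7.74 at 1.0%, 6.12, 6.31 and 6.50 at 0.5%, and 5.71, 5.99 and 6.12 in control. The lowest 1.0% array overlapped the highest 0.5% arrays, and the 0.5% arrays touched the top of the control range. The difference between the doses was 0.82 (95% interval 0.45 to 1.20, adjusted p = 0.279), beside 0.36 at 0.5% against control (adjusted p = 0.657) and 1.18 at 1.0% (adjusted p = 0.00607). Gpr146, an orphan receptor gene, was at 6.77, 7.23 and 7.60 at 1.0%, 6.52, 6.95 and 7.06 at 0.5%, and 6.06, 6.17 and 6.59 in control. Its levels at the 2 doses overlapped, and 0.5% replicate 2 was the lowest. The difference was 0.35 (95% interval 0.05 to 0.65, adjusted p = 0.748), beside 0.66 at 0.5% against control (adjusted p = 0.25) and 1.01 at 1.0% (adjusted p = 0.00607). Its 3 other probe sets differed between the doses by 0.35, 0.35 and 0.26. Carlr lay near the floor at both doses, with medians of 0.75 at 0.5% and 0.45 at 1.0%, and the interval of its difference was -0.73 to 0.38 (adjusted p = 0.961).

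Among the genes with the next smallest p, none passed, and those higher at 1.0% included nuclear and membrane proteins. Srsf5, a splicing factor gene, was at 9.02, 9.20 and 9.43 at 1.0%, 7.94, 8.35 and 8.84 at 0.5%, and 8.30, 8.90 and 9.13 in control. All 1.0% arrays were above all 0.5% arrays, and the control arrays overlapped both. The difference in Srsf5 was 0.85 (SE 0.16, adjusted p = 0.09), and it passed with a pseudocount of 16 (adjusted p = 0.0263) and without the genes below the median level (adjusted p = 0.0317). Nr1i2, the xenobiotic receptor PXR, differed by 0.51 (adjusted p = 0.402), with 5.74, 6.00 and 6.34 at 1.0% and 5.29, 5.46 and 5.98 at 0.5%, where 5.98 was replicate 5, and a second probe set gave -0.19. App, the amyloid precursor protein gene, differed by 0.33 (adjusted p = 0.398). Ankfy1 (0.46), of endosomal traffic, Ercc8 (0.45), of DNA repair, Plekhg6 (0.87) and Rai1 (0.79) had adjusted p from 0.334 to 0.402. Gpr137b (1.44), Mkx (1.61) and Col25a1 (1.69) were dim, with means at 0.5% of 1.79, 1.21 and 2.03 under the floor, and Lpar3, a lysophosphatidic acid receptor gene, was near the floor in both groups. The other probe sets of Gpr137b differed by -0.19, -0.41 and -0.25.

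On the lower side, Dnajb1, a cochaperone of the Hsp70 proteins, was at 6.06, 6.43 and 6.64 at 1.0%, 6.97, 7.85 and 8.75 at 0.5%, and 6.90, 7.29 and 9.03 in control. The 1.0% arrays were below every array at 0.5% and in control, but the lowest 0.1% array (6.60) lay within their range. The difference between the doses was -1.34 (SE 0.30, adjusted p = 0.315), and a second probe set gave -0.53. Mal2, which takes part in transcytosis in hepatocytes, was also below 0.5% and control in every array at 1.0% (6.08, 6.55 and 6.72, against 6.86, 7.19 and 7.46 at 0.5%), with a difference of -0.71 (adjusted p = 0.315). The lowest 0.1% array of Mal2 (6.46) lay within the 1.0% range. Zswim6 differed by -0.81 (adjusted p = 0.244) and passed without the 2 arrays high in 18S signal (-1.03, adjusted p = 0.0232). A second, dimmer probe set of Zswim6 gave 0.45. Ces2b, a carboxylesterase gene, differed by -1.36 (adjusted p = 0.354), with its mean at 5.25 at 0.5%, 3.89 at 1.0% and 4.45 in control. Mavs (-0.46), an adaptor of antiviral signalling, Gfpt1 (-0.57), the first enzyme of the hexosamine pathway, Gtf2e2 (-0.54), a subunit of a general transcription factor, Palld (-0.57), an actin-associated protein, Slfn5 (-0.61), Ccdc117 (-0.79) and Tsga10 (-0.66) had adjusted p from 0.381 to 0.402. A second probe set of Tsga10 gave 0.66.

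**Figure D2:**
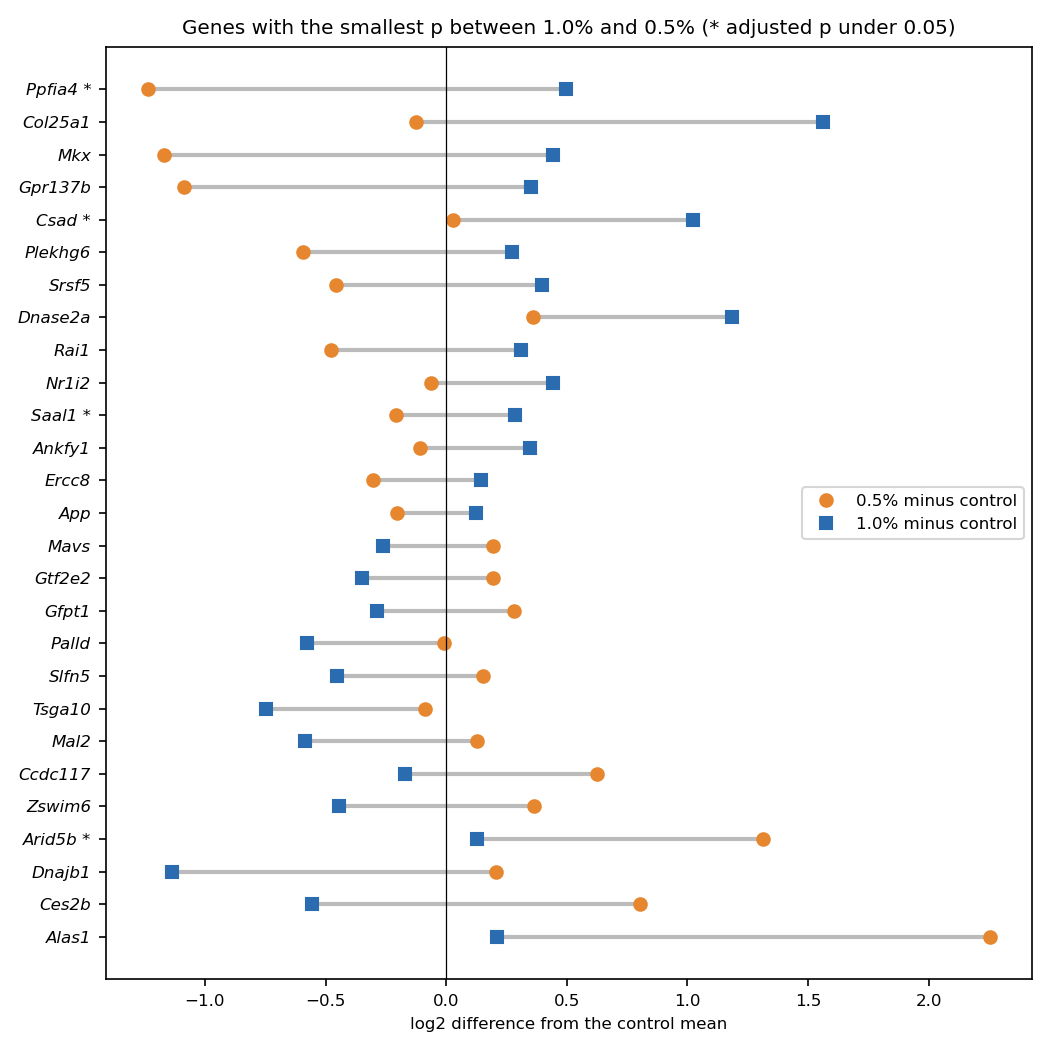
Log2 difference of the 0.5% mean (circles) and of the 1.0% mean (squares) from the control mean for the 4 genes that passed between the doses (asterisks) and the next genes by p that were not near the floor. Csad lies 0.03 from control at 0.5% and 1.02 at 1.0%, and Arid5b lies 1.31 from control at 0.5% and 0.13 at 1.0%.

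In 35 genes every array at 1.0% was above every array at 0.5% (0.192% of 18193), and in 17 genes every array was below (0.0934%). Of the 35, 6 had the 1.0% arrays above all control arrays while the 0.5% arrays overlapped control: Csad, Saal1, Ephx1, Grn, Retsat and Atp6ap2. Ephx1 encodes microsomal epoxide hydrolase, Grn the secreted and lysosomal protein progranulin, Retsat retinol saturase, and Atp6ap2 an accessory protein of the vacuolar proton pump. Their differences between the doses were 0.36, 0.35, 0.37 and 0.16, with adjusted p from 0.425 to 0.786. In 3 of the 35, App, Chd2 and Mkln1, it was the 0.5% arrays that lay apart from control, below it, and in 26 neither dose did. Of the 17, 4 had the 1.0% arrays below all control arrays: Dnajb1, Mal2, Clcn3, a chloride and proton exchanger gene, and Ldah, a hydrolase gene of lipid droplets. In the other 13, among them Canx and Mavs, neither dose lay apart from control. How many genes would separate in this way by chance was not tested, so the counts are a description only. These genes were picked by their values, and 3 of them, Csad, Saal1 and Ppfia4, also passed the test between the doses. The balance of directions followed the scaling: 11 higher and 27 lower without normalization between arrays, and 14 higher and 105 lower with arrays centred on their medians. Between the doses the median of all genes moved to -0.0968 without normalization and to -0.121 with centring.

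Genes were then taken by list, and the counts read against all genes, of which 51.4% were higher and 48.6% lower at 1.0% than at 0.5%. Because the scaling shifts all genes, the share of higher genes moved by over 10 percentage points in 22 of 31 lists without normalization between arrays or with centring. Of the 11 lists with a median above 0, 9 were below 0 under one of these scalings, and the other two were cholesterol synthesis and neutrophil markers. The median of all genes was -0.0968 without normalization and -0.121 with centring. Shares of all genes by direction are given only for the quantile-normalized values of all 24 arrays. Counts of list members under other scalings or in fewer arrays lack such a share and are not read as results about a list. Of 481 measured genes in 31 lists, Csad was the only one that passed between the doses in the quantile-normalized values. In the cytosolic heat shock list, 16 of 17 genes were lower at 1.0% than at 0.5% (against 48.6% of all genes), with a median of -0.38, and 6 were lower with an unadjusted p under 0.05 (against 2.95% of all genes). Hspa1b, an inducible Hsp70 gene, was at 8.78, 10.76 and 11.95 at 0.5%, 6.93, 8.18 and 9.84 at 1.0%, and 7.69, 8.54 and 11.67 in control. The arrays of the doses overlapped, and the highest control array, replicate 2, lay within the range of the 0.5% arrays. The difference in Hspa1b was -2.11 (SE 0.65, adjusted p = 0.57), and its 2 other probe sets gave -1.96 and -1.98. Hspa1a (-1.98), the neighbouring copy whose promoter stretch is the same, Dnajb1 (-1.34), Bag3 (-0.88), a nucleotide exchange factor of Hsp70, Dnajb4 (-0.60) and Hspa8 (-0.53), the constitutive Hsc70, were the others with an unadjusted p under 0.05. Hspd1 (-0.02) and Hspe1 (-0.03), the mitochondrial chaperonin genes, and Hspb1 (0.14), a small heat shock protein gene, stood at the other end.

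Against control, 16 of 17 heat shock genes were above at 0.5% (against 46.6% of all genes) with a median of 0.57, and 11 of 17 at 1.0% (against 48.4% of all genes) with a median of 0.17. These comparisons share the control arrays, and 53.4% and 51.6% of all genes were below control. The median of the list per array, relative to the control mean, was 1.01, 0.96 and 1.26 in 0.5% replicates 1, 4 and 6, and between -0.162 and 0.32 in replicates 2, 3 and 5. At 1.0% it was 0.60, 0.65 and 0.22 in replicates 4, 5 and 6 and between -0.402 and -0.076 in replicates 1 to 3, and it was 0.74 in control replicate 2. The difference between the doses had a median of -0.70 in replicates 1 to 3 and of -0.0922 in replicates 4 to 6, where 11 of 17 genes were lower. Without the 4 arrays apart on the first component it was -0.49 (16 of 17 lower), and without the 2 arrays high in 18S signal, one of which is 0.5% replicate 1, it was -0.34. Over the 24 fits that left out 1 array, the list's median ran from -0.58, without 1.0% replicate 5, to -0.26.

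The unfolded protein response list was lower in 20 of 23 genes at 1.0% than at 0.5% (against 48.6% of all genes), with a median of -0.27. By unadjusted p under 0.05, 9 were lower (against 2.95% of all genes) and 1 was higher (against 3.25% of all genes). Sdf2l1, a chaperone of the endoplasmic reticulum, was at 6.29, 6.87 and 7.49 at 0.5% and 5.63, 6.15 and 6.97 at 1.0%, a difference of -0.72 (adjusted p = 0.587). Syvn1, a ubiquitin ligase that clears misfolded proteins from that compartment, was at 7.38, 7.62 and 8.53 at 0.5%, 6.85, 7.11 and 7.70 at 1.0%, and 6.90, 7.20 and 7.69 in control, a difference of -0.55 (adjusted p = 0.629). The doses overlapped in both genes, and at 1.0% the median of Syvn1 was near that of control. Pdia4 (-0.49), a disulfide isomerase, Sel1l (-0.36), the partner of Syvn1, and the calcium-binding chaperones Canx (-0.21) and Calr (-0.17) also had an unadjusted p under 0.05. Canx and Calr are abundant, with means at 0.5% of 9.92 and 10.97. Trib3, a stress-induced pseudokinase gene, went the other way (1.18, adjusted p = 0.714), with an SD of 1.33 at 0.5%.

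Relative to control the median of the unfolded protein response list was 0.24 at 0.5%, with 17 of 23 genes above, and -0.0729 at 1.0%, with 7 of 23 above. Without the 2 arrays high in 18S signal, 2 genes of the list were lower with an unadjusted p under 0.05, and the median was -0.195. In that fit 1113 of all 18193 genes had such a p in either direction. Without the 4 arrays apart on the first component, 12 genes of the list were lower with such a p, with a median of -0.33. There, 1155 of all 18193 genes had such a p in either direction. The median was -0.33 in replicates 1 to 3 and -0.141 in replicates 4 to 6, and ran from -0.30 to -0.188 over the fits that left out 1 array. At 0.5% the list's median per array was highest in replicates 1 (0.47) and 6 (0.62), one of them high in 18S signal and the other apart on the first component, and the part of either in the result was not tested.

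**Figure D3:**
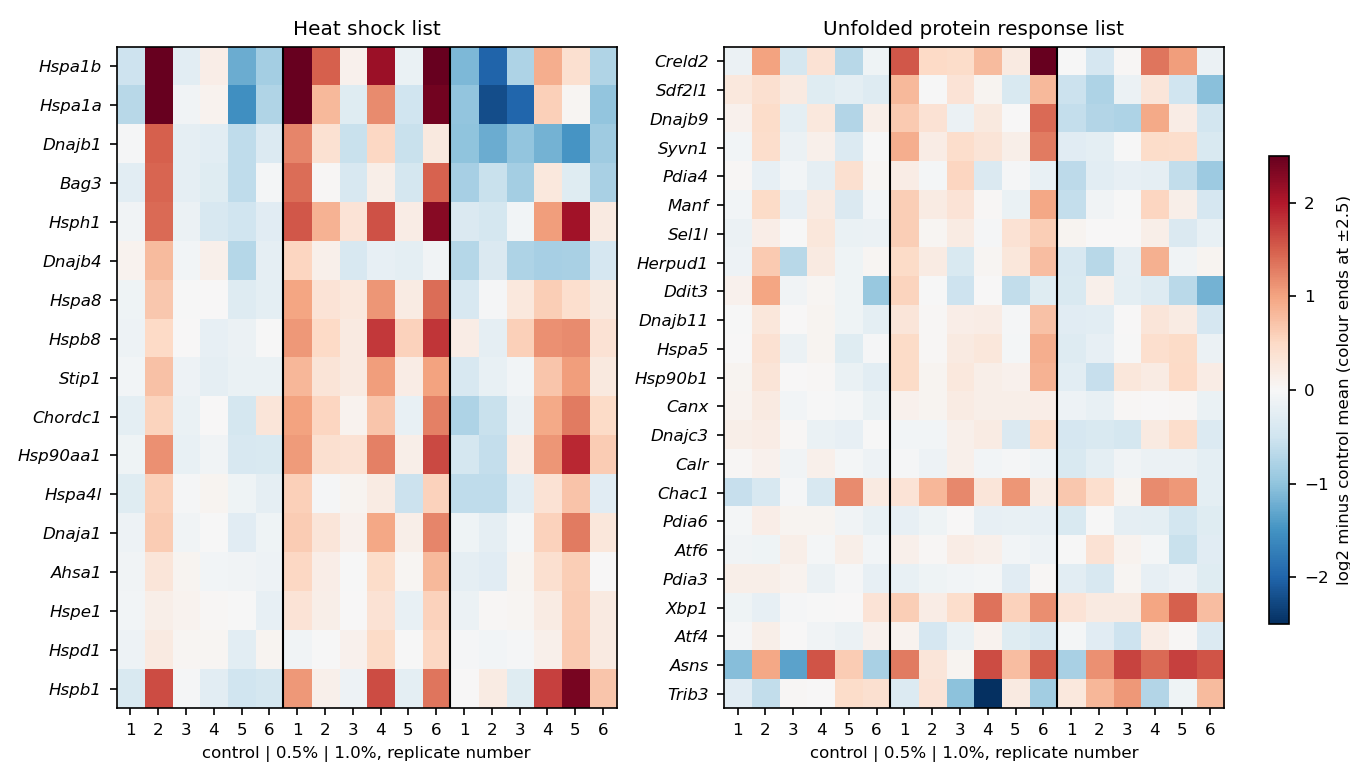
Log2 level minus the control mean for each measured gene (rows, ordered by the difference between the doses) of the heat shock and unfolded protein response lists in each array of the control, 0.5% and 1.0% groups (columns). Red is above and blue below the control mean. The highest single values are Hspa1b in 0.5% replicate 6 (3.01) and Hspa1a in control replicate 2 (2.97).

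Immediate early genes, which answer growth and stress signals within a short time, were lower at 1.0% in 16 of 17 cases (against 48.6% of all genes) with a median of -0.58, and 2 were lower with an unadjusted p under 0.05 (against 2.95% of all genes). Dusp1, a phosphatase of MAP kinases, was at 8.69, 9.04 and 10.68 at 0.5% and 7.29, 8.50 and 8.76 at 1.0%, a difference of -0.96 (adjusted p = 0.57). Fos was at 2.85, 4.59 and 7.97 at 0.5% and 1.12, 3.34 and 4.11 at 1.0%, a difference of -1.84 (adjusted p = 0.714). Both overlapped between the doses, and the highest values were those of 0.5% replicate 4. The list's median was -1.09 in replicates 4 to 6, but 0.117 in replicates 1 to 3 with 10 of 17 genes higher, and -0.0318 without the 4 arrays apart on the first component. It was -0.30 without 0.5% replicate 4 and -0.35 without 0.5% replicate 6. Among named members, Zfp36 was -0.63 over all arrays and 0.45 in replicates 1 to 3, and Btg2 was -1.10 and 0.117.

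Glucocorticoid-responsive genes were lower in 11 of 15 cases (against 48.6% of all genes) with a median of -0.46, and in 14 of 15 without normalization between arrays. Relative to the control mean, the list's median per array was 1.73 and 1.70 in 0.5% replicates 4 and 6 and between 0.23 and 0.53 in the other arrays at 0.5%. The median difference between the doses was -0.24 without 0.5% replicate 4, -0.21 without 0.5% replicate 6 and -0.192 without the 4 arrays apart on the first component. Errfi1, a feedback inhibitor of the EGF receptor, differed by -0.54 (adjusted p = 0.616), Sgk1, a kinase gene, by -0.67 (adjusted p = 0.786) and Tsc22d3, which encodes GILZ, by -0.46 (adjusted p = 0.81). In the list of cytokine feedback genes 6 of 16 were higher and 10 lower, with a median of -0.0175, and 14 were lower without normalization. Cish, an inhibitor of STAT5 signalling, was at 6.81, 7.10 and 7.53 at 0.5%, 4.38, 5.13 and 7.21 at 1.0%, and 3.96, 4.64 and 5.86 in control. All 0.5% arrays lay above control, and the highest 1.0% array overlapped them. The difference between the doses was -1.54 (SE 0.46, adjusted p = 0.51), beside 2.40 at 0.5% against control (adjusted p = 0.0843) and 0.86 at 1.0% (adjusted p = 0.622). Cish passed at 0.5% against control without normalization between arrays and with arrays centred on their medians. Stat5a, the transcription factor upstream of it, differed between the doses by 0.51 (adjusted p = 0.616).

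Of 30 measured PPAR-alpha target genes, 28 were higher at 1.0% than at 0.5% in the quantile-normalized values (against 51.4% of all genes), with a median of 0.16, and 6 were higher with an unadjusted p under 0.05 (against 3.25% of all genes). Plin2, which coats lipid droplets, was at 11.29, 11.62 and 11.90 at 1.0% and 10.69, 11.17 and 11.44 at 0.5%, a difference of 0.44 (adjusted p = 0.616). Pex11a, a peroxisome division gene, was at 8.06, 8.40 and 8.80 at 1.0% and 7.71, 8.05 and 8.30 at 0.5%, a difference of 0.41 (adjusted p = 0.57). The doses overlapped in both genes. Acaa1b (0.32), a peroxisomal thiolase, and Acadl (0.16), a mitochondrial acyl-CoA dehydrogenase, came next. Without normalization 15 genes were higher and 15 lower (median -0.00225), and with arrays centred on their medians 14 were higher and 16 lower (median -0.0263). Relative to the median of all genes under the same scaling, the list's median was 0.153 with quantile normalization, 0.0945 without normalization and 0.0947 with centring.

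Of 19 cholesterol synthesis genes, 16 were higher at 1.0% than at 0.5% (against 51.4% of all genes), with a median of 0.28, and 4 were higher with an unadjusted p under 0.05 (against 3.25% of all genes). Against control the median was -0.193 at 0.5% and 0.0875 at 1.0%. Msmo1, a sterol methyl oxidase, was at 7.42, 8.35 and 8.86 at 1.0%, 7.06, 7.58 and 8.14 at 0.5%, and 7.51, 7.76 and 7.93 in control. The doses overlapped, and the difference was 0.62 (SE 0.21, adjusted p = 0.616). Srebf2, the transcription factor that drives the pathway, differed by 0.54 (adjusted p = 0.726), and the enzymes Nsdhl and Cyp51 by 0.41 and 0.41. Other probe sets gave 0.11 and -0.09 for Cyp51 and 0.21 for Srebf2. Insig1 (-0.18) and Insig2 (-0.11), which restrain that factor, and Ebp (-0.02) were the 3 that were lower. The list's median was 0.10 without normalization between arrays and 0.0761 with centring, with 13 of 19 genes higher in each, and 0.24 without the 4 arrays apart on the first component.

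**Figure D4:**
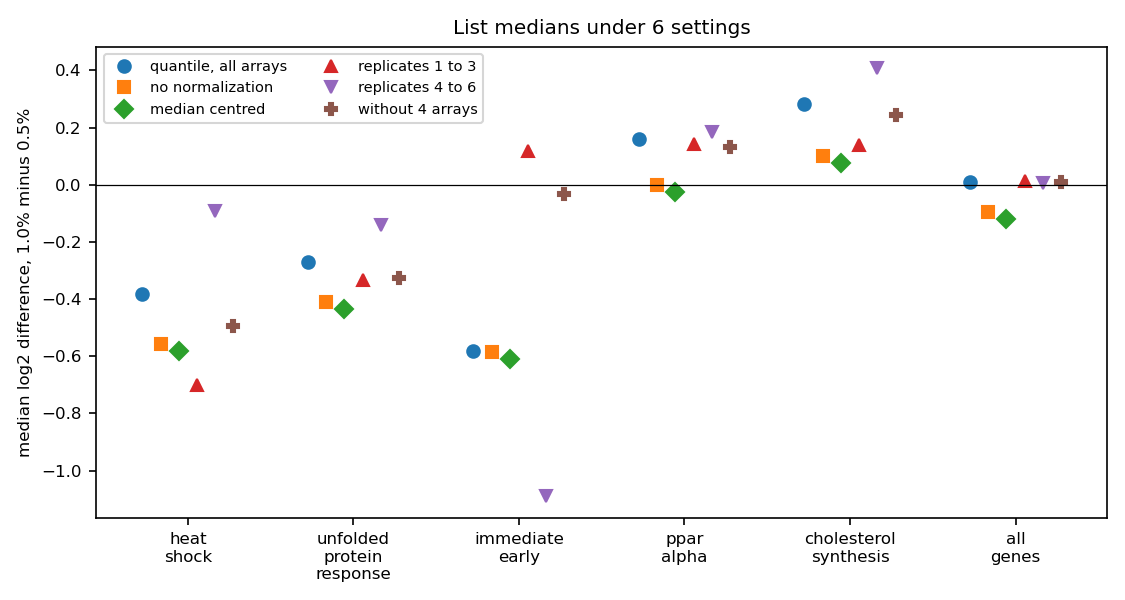
Median log2 difference between 1.0% and 0.5% of 5 gene lists and of all genes under 6 settings of normalization and arrays. The heat shock and unfolded protein response medians are below 0 in each setting shown, the immediate early median is 0.117 in replicates 1 to 3, and the PPAR-alpha median is -0.00225 without normalization and -0.0263 with centring.

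Genes of bile acid and sterol handling were split, with 11 of 24 higher and a median of -0.00352, and 5 of 24 were higher without normalization. Nr1h4, the bile acid receptor FXR, was at 7.54, 7.66 and 8.14 at 1.0%, 6.86, 7.35 and 7.52 at 0.5%, and 7.33, 7.72 and 7.88 in control. Its 1.0% arrays were all above its 0.5% arrays, and both overlapped control. The difference was 0.48 (SE 0.14, adjusted p = 0.487). The transporters Abcc3 (0.47) and Abcb4 (0.22) and the receptor gene Fgfr4 (-0.20) were the others with the smallest p. In fatty acid and triglyceride synthesis 14 of 25 genes were higher (median 0.0257), but 3 of 25 without normalization (median -0.163) and 2 of 25 with centring (median -0.187), with Scd1, the main desaturase, at -0.34 and Elovl6, an elongase, at -0.41.

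Among genes that handle foreign compounds, none passed between the doses. In the Nrf2 and glutathione list 18 of 25 were higher at 1.0% with a median of 0.0963, but 9 of 25 without normalization (median -0.0427) and 8 of 25 with centring (median -0.0668). Its smallest p was that of Ephx1, at 9.64, 9.70 and 9.96 at 1.0%, 9.29, 9.40 and 9.57 at 0.5%, and 9.32, 9.42 and 9.58 in control (adjusted p = 0.492). The glutathione transferase genes Gstm4 (0.23) and Gstm3 (0.28) and Osgin1 (0.44) followed without passing. A second probe set of Gstm3 gave -0.20. Of 16 genes of flavonoid conjugation 7 were higher and 9 lower (median -0.0419), and 4 were higher without normalization. The glucuronosyltransferase Ugt2b1 (-0.22) and the sulfotransferase Sult1d1 (-0.36) were among the lower genes. Of 16 targets of the receptors CAR and PXR 8 were higher and 8 lower, and 3 were higher without normalization, with Cyp2b10, the usual CAR marker, at 3.48, 4.51 and 5.35 at 0.5% and 2.02, 3.02 and 4.84 at 1.0% (difference -1.19, adjusted p = 0.748). Cyp3a44 differed by -0.81 (adjusted p = 0.616) and Cyp1b1, an aryl hydrocarbon receptor target, by 1.28 (adjusted p = 0.552) with a mean at 0.5% of 1.75 under the floor. Other probe sets of Cyp1b1 gave 0.46 and -0.02.

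In the taurine and sulfur amino acid list 7 of 14 genes were higher and 7 lower (median -0.00782), 2 of 14 were higher without normalization, and Csad alone passed in the quantile-normalized values. Got1, a cytosolic transaminase, was at 7.47, 7.59 and 7.75 at 1.0% and 7.32, 8.26 and 8.90 at 0.5% (difference -0.62, adjusted p = 0.616), Mpst differed by -0.47 and Gnmt by 0.12. Respiratory chain genes had a median of -0.00522 with 13 of 27 higher, but 0 of 27 were higher without normalization (median -0.158) and with centring (median -0.182). Relative to the median of all genes, the list's median was -0.0612 without normalization and -0.061 with centring, beside -0.0134 in the quantile-normalized values. Urea and amino acid genes had a median of -0.0373 with 7 of 17 higher, and 1 of 17 without normalization. Gluconeogenesis genes were lower in 12 of 17 cases (median -0.137), and in 16 of 17 without normalization, with G6pc at -0.51 and Pck1 at -0.39. Clock genes were lower in 11 of 18 cases (median -0.178), with Dbp at 0.90, Per3 at 0.80 and Ciart at -0.98. The other probe sets of Per3 ran from -0.33 to 0.56. Among p53 targets 11 of 16 were lower (median -0.115, and -0.409 without 0.5% replicate 1), with Plk3 at 5.03, 5.61 and 7.18 at 0.5% and 3.27, 4.45 and 5.19 at 1.0% (difference -1.46, adjusted p = 0.587). The medians of metal-handling genes (0.091), aryl hydrocarbon receptor targets (0.179) and cell cycle genes (0.0641) were -0.0675, -0.016 and -0.000836 with centring, and that of metal-handling genes was -0.0669 without 1.0% replicate 5.

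Acute phase genes were higher in 10 of 23 cases with a median of -0.00338, and lower in 21 of 23 without normalization between arrays and 22 of 23 with centring. Relative to the median of all genes, the list's median was -0.0862 without normalization and -0.086 with centring. Hamp, the iron hormone hepcidin, was at 11.13, 11.50 and 11.94 at 1.0% and 9.94, 10.94 and 11.23 at 0.5%, where 9.94 was replicate 3 (difference 0.68, adjusted p = 0.679). Orm1 differed by -0.24 and A2m by -0.61. Markers of other cell types in the quantile-normalized values had medians of 0.0754 for Kupffer cells (11 of 12 higher, but 3 of 12 without normalization), 0.0855 for stellate cells and fibroblasts and 0.0648 for sinusoidal endothelium. Without normalization these medians were -0.107, -0.0459 and -0.10. The median was -0.106 for lymphocytes, -0.115 for cholangiocytes, -0.0429 for red cells and 0.265 for neutrophils. That of neutrophils was -0.013 without 0.5% replicate 1, -0.0158 without 0.5% replicate 3 and 0.559 without 0.5% replicate 6. That of lymphocytes was 0.0347 without 1.0% replicate 2, 0.131 without 1.0% replicate 6 and -0.191 without 1.0% replicate 3, and that of cholangiocytes was 0.000914 without 1.0% replicate 6. The neutrophil genes Elane (0.93) and S100a8 (-0.57) went opposite ways, and none of the cell type markers passed.

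**Figure D5:**
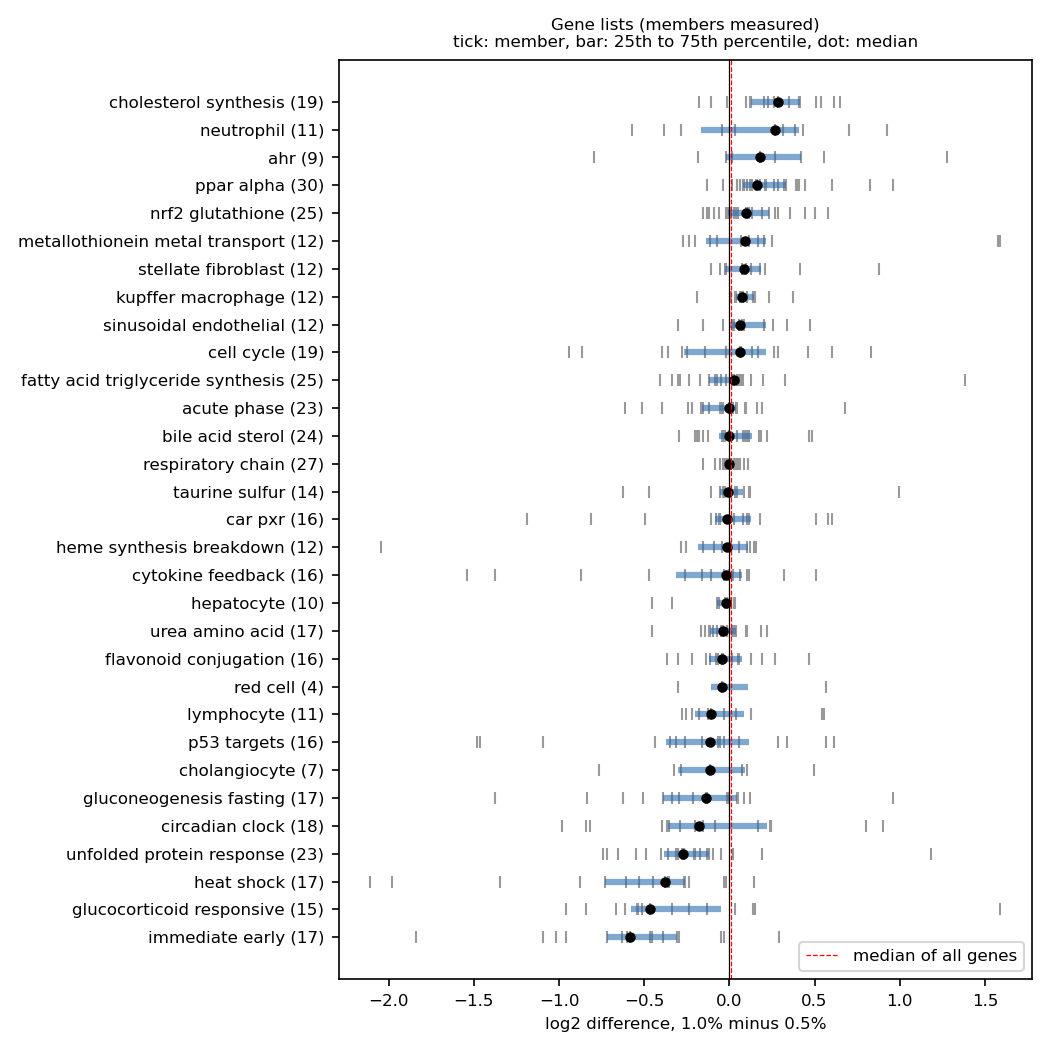
Log2 difference between 1.0% and 0.5% for each measured gene (ticks) of 31 gene lists, with the median (dot), the 25th to 75th percentile (bar) and the number of genes in brackets. The immediate early, glucocorticoid-responsive, heat shock and unfolded protein response medians lie lowest, from -0.58 to -0.27, and the cholesterol synthesis median highest at 0.28.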

How the data were processed

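Whole-liver RNA of each mouse was hybridized as biotin-labelled cRNA to an Affymetrix array, per the labels' protocols. The deposited values are intensities on a linear scale, 1 per probe set and array. The software, background correction and probe summary that the authors used were not stated in the labels. Of 45101 probe sets, 34945 with 1 gene symbol were used, and 932 with several symbols, 9211 not listed and 64 controls were left out. The classes left out overlap, so the counts add to more than the total. The deposited intensities were turned into log2(intensity + 1) and quantile normalized, and each gene kept its probe set with the highest mean, giving 18193 genes.

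All 24 arrays entered 1 limma fit (limma 3.58.1, R 4.3.3) with empirical Bayes moderation and Benjamini-Hochberg adjustment at 0.05, and this procedure was tested on simulated data. It recovered 9 of 50 genes changed between the doses by log2 0.5, 26 of 50 changed by 1, 48 of 50 changed by 2 and 50 of 50 changed by 3. Of its 144 calls, 11 were false. All these genes were changed in the same simulated data, and the real comparison passed 4 genes. The adjustment is easier to pass when many genes change, so these rates do not carry over to the real comparison. The simulated arrays varied independently, with none set apart as on the first component. Named were genes that passed, the next 12 per direction by p, genes that passed against control, and up to 4 per list by p. Other list members, and genes named because their arrays did not overlap, were chosen after their values were seen. A gene with both dose means under the 30th percentile is called near the floor. The members and lists were chosen with earlier results of these data known. Alternatives changed normalization, pseudocount, filter, probe sets, fit and arrays.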

Additional observations from a re-analysis of the deposited data

Results flagged for a closer look

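Among the named genes, 279 groups of 6 arrays were examined and 21 had 1 array far from the other 5 of its diet, where chance alone gives about 1 in 20 groups. Of these, 7 were in control replicate 2: Alas1 (9.438), Dnajb1 (9.031), Hspa1b (11.67), Hspa1a (7.623), Palld (8.262) and Tsc22d3 (8.411) were high and Plekhg6 (3.94) was low.

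In the 0.5% group, replicate 5 was high for Col25a1 (3.116) and Nr1i2 (5.983) and low for Ngp (2.707), a neutrophil granule gene. Replicate 1 was high for Cyp51 (6.933). Replicate 2 was low for Gpr146 (6.516), replicate 6 for Gstm4 (7.041) and replicate 3 for Hamp (9.94). In the 1.0% group, replicate 6 was high for Gtf2e2 (6.398), and replicates 3 and 5 were low for Ccdc117 (4.538) and Dusp1 (7.294). In control, replicate 3 was high for Cyp2b10 (4.56), and replicates 5, 4 and 1 were low for Elane (1.661), Plk3 (1.369) and Cidec (0.4861), the last a lipid droplet gene.

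Outside the genes compared, the 18S ribosomal RNA control probe sets had a log2 signal of 10.73 in 0.5% replicate 1 and of 9.808 in 1.0% replicate 6, above the control arrays, which lay between 5.829 and 8.434.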

How the results depend on the processing

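Between 1.0% and 0.5%, 4 genes passed. The count was 0 without normalization between arrays, in the fit of the 12 arrays alone, with array weights (935 genes at an unadjusted p under 0.05), in replicates 1 to 3 (1271), in replicates 4 to 6 (997) and without the 4 arrays apart on the first component. It was 1 with median centring, 1 with the mean of all probe sets, 2 with a trended, robust prior and 2 without the 2 arrays high in 18S signal, and ran from 0 to 8 when 1 array was left out. At 0.5% against control, 3 genes passed. The count was 5 without normalization, 7 with centring, 0 in the fit of the groups compared (1366 unadjusted), 6 with array weights, 0 in replicates 1 to 3 (891), 1 in replicates 4 to 6 and 1 without the 4 arrays, and 0 to 6 with 1 array left out. At 1.0% against control, 4 genes passed. The count was 0 without normalization (1100), 2 with centring, 7 with the mean of all probe sets, 1 in the fit of the groups compared, 1 in replicates 1 to 3, 0 in replicates 4 to 6 (1760), 0 without the 4 arrays and 7 without the 2 arrays, and 4 to 7 with 1 array left out. The 52 genes with no overlap between the doses became 119 with centring, 626 without the 4 arrays and 155 without the 2 arrays, where fewer arrays have to separate. Leaving out these 4 or 2 arrays was chosen after seeing the data. The cause of these changes was not tested otherwise.

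Among the genes named above, the difference between the doses reversed for Alad (-0.03933) and Acadl (-0.02852) without normalization, and for Alad (-0.06337) and Acadl (-0.05256) with centring. Other list members, such as Ahr, Col3a1 and Csf1r, also reversed under some settings and are not listed here. With the mean of all probe sets it reversed for Saal1 (-0.02854) and Tsga10 (0.002326). In replicates 1 to 3 it reversed for Carlr (0.03349), Btg2 (0.1169) and Zfp36 (0.4494), and without the 4 arrays for Carlr (0.0514) and Zfp36 (0.06129). The cause was not tested.

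Same-numbered arrays did not deviate together: their correlations ran from -0.0641 to 0.111, and 1 of 6 arrays at 1.0% correlated best with its own number. With the replicate number as a block, limma passed 0 genes between the doses (1139 unadjusted), 0 at 0.5% against control (1403 unadjusted) and 4 at 1.0%. Dim probe sets limit what can be compared, as with Ppfia4 and Carlr.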
